A study of Mus musculus with 14 samples.

Results

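The genes described are the feedback inhibitors of MAP kinase signalling in regenerating mouse liver: the dual-specificity phosphatases Dusp1, Dusp4, Dusp6, Dusp10 and Dusp16 and the Sprouty genes Spry2 and Spry4. Members were taken by name: a probe set counted where its only gene symbol in the array annotation was one of these 7, and the brightest probe set over the 14 arrays stood for its gene. Of the 7 genes, 6 had a probe set, 9 probe sets in all, among 12393 genes with a probe set of 1 symbol. Dusp4 was not analysed here. Of the 6 genes, 5 passed the filter on low intensity (a mean of 128.8 or more over the 14 arrays) and Spry4 did not.

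The samples were normal mouse liver and liver recovered 4, 8, 12, 36, 48 and 72 h after partial hepatectomy (PHx), an operation that takes out part of the organ and leaves a remnant that grows back. Each of the 7 groups had 2 arrays, and livers of 4 to 6 mice had been pooled for RNA extraction. Strain, sex and age are not given in the sources used here, and normal liver was the only control, with no sham operation among the groups. Whether both arrays of a time held separate pools is not in the labels, so the p-values cover the spread between the samples at hand, and this spread may be technical.

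Values are deposited intensities on a linear scale, with array medians from 127.8 to 233.1, and precision is limited by there being 2 arrays a group. The background of an array, set at the 95th percentile of its 27 bacterial controls, lay between 43.56 and 138.3, and was highest in replicate 2 of the 12 h group. In the 8, 12, 36 and 72 h groups, replicate 2 stood apart in a control measure, with a 5′ to 3′ signal ratio of pyruvate carboxylase of 0.091 to 0.137 against 0.305 to 0.584 in the other 10 arrays. The 2 arrays of the 12 h group correlated least across probe sets (r = 0.91, against 0.942 to 0.97 in the other groups). Of the hepatocyte markers, 7 of 7 measured were above background on all 14 arrays. The 4 and 8 h livers, and replicate 2 of the 36 h group, also carried transcripts of pancreatic acinar cells and skeletal muscle, and the 12 h livers some of muscle, whose values are given beside the results they accompany.

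MAP kinase phosphatases are enzymes that remove the activating phosphates from the threonine and tyrosine of MAP kinases and so switch them off. Many of them, and the Sprouty proteins that act above ERK by restraining the path from receptor tyrosine kinases to Ras, are themselves transcribed when the kinases are active, which makes them feedback inhibitors and, at the RNA level, common readouts of recent signalling. In the liver remnant, hepatocyte growth factor and ligands of the EGF receptor act through this pathway as hepatocytes leave quiescence and enter the cell cycle.

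Dusp1 and Dusp6, the members with the widest swings over the time course, differ in the sequence before their start sites. The 250 bases before each start are printed here 5′ to 3′ on the strand of the gene, from RefSeq on GRCm38.p6 (Dusp1 at chr17:26508473-26508722, minus strand; Dusp6 at chr10:99262981-99263230, plus strand), with the one motif match found in capitals.
Dusp1: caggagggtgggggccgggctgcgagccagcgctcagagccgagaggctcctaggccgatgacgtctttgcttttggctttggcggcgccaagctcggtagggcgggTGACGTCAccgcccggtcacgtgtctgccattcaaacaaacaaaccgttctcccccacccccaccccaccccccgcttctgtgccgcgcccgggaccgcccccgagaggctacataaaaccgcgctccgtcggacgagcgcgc
Dusp6: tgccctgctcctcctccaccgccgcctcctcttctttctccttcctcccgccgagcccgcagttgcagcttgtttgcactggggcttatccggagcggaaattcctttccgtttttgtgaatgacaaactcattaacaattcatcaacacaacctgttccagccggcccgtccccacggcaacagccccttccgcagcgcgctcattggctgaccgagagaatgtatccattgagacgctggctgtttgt
The windows searched ran from 250 bases before to 50 after each start, on both strands, for 4 motifs: the cyclic AMP response element TGACGTCA, the AP-1 site TGANTCA, the STAT site TTCNNNGAA and the CArG box of serum response factor. These 4 patterns were counted separately, without regard to overlap. The capitals mark the cyclic AMP response element of Dusp1, 143 to 136 bases before the start. This element was present in 588 of 32851 promoter windows of the same length (1.79%). The AP-1 site was present in 7.81% of them, the STAT site in 8.3% and the CArG box in 1.63%. None of the 4 motifs was in the windows of Dusp6, Dusp10, Dusp16 or Spry2, which says only that these letters are not in these windows.

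Dusp1 encodes the inducible nuclear phosphatase of ERK, p38 and JNK. Its transcript was abundant in normal liver and lower after hepatectomy on 11 of 12 arrays. Its intensity was 3784 and 4139 on the normal arrays. It was 2226 and 1838 at 4 h, 755.8 and 582.4 at 8 h, and 850.9 and 3857 at 12 h. At the later times it was 732.8 and 1236 at 36 h, 959.3 and 1258 at 48 h, and 352.9 and 485.4 at 72 h. Both arrays lay below both normal arrays at 5 of the 6 times, the exception being 12 h, where replicate 2 stood at the level of normal liver and replicate 1 far below it. In the same count, 9.29% of the 13576 probe sets tested lay below normal liver in this way at 5 or 6 of the 6 times.

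Dusp1 was called by the moderated F test of limma over the 6 times (adjusted p = 0.0149), as were 13.1% of probe sets. Of the 5 members tested, Dusp1 alone was called by that test and in the comparisons of single times with normal liver, and only as lower. Its log2 difference from normal liver at 8 h was -2.48 (SE 0.51, 2 arrays against 2, limma adjusted p = 0.0102), when 9.59% of probe sets were called in either direction and 4.72% as lower. At 36 h the difference was -1.99 (SE 0.51, limma adjusted p = 0.04999), where 4.17% were called and 1.89% as lower. At 72 h it was -3.09 (SE 0.51, limma adjusted p = 0.00661), where 2.49% were called and 0.869% as lower. The differences at 4 h (-0.95, adjusted p = 0.452), 12 h (-1.09, adjusted p = 0.177) and 48 h (-1.80, adjusted p = 0.112) did not pass the threshold of 0.05, with 2.42%, 12.2% and 2.32% of probe sets called at these times.

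The fall at 36 h lay at the edge of the threshold: it was called in 2 of the 14 fits that left out 1 array, those without either 12 h array. At 8 and 72 h the size of the fall changed little when 1 array was left out, but the call was lost in 2 such fits at each time. Without normal replicate 2 the difference was -2.41 at 8 h (adjusted p = 0.0761) and -3.03 at 72 h (0.0672). Without 8 h replicate 2 it was -2.30 at 8 h (0.0872), and without 72 h replicate 1 it was -2.89 at 72 h (0.0674). The F test lost its call without normal replicate 2 (adjusted p = 0.0588) or 72 h replicate 1 (0.0525). Without 12 h replicate 2 the difference at 12 h was -2.15 (adjusted p = 0.00408), and without 12 h replicate 1 it was -0.04, so the value at 12 h is set by which array is used. Without either 12 h array the difference at 48 h passed (adjusted p = 0.00539).

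Ordered by mean intensity, Dusp1 ran from normal liver (3962 ± 250.6, SD, n = 2) through 12 h (2354 ± 2126) and 4 h (2032 ± 274.7) to 48 h (1108 ± 210.9), 36 h (984.5 ± 356) and 8 h (669.1 ± 122.6), with 72 h the lowest (419.1 ± 93.69). Neighbours in this order whose arrays did not overlap were 4 h and 48 h, and 8 h and 72 h; the other neighbours overlapped.

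Transcripts of other tissues were present at some of these times. The summed intensity of the 9 measured pancreatic acinar genes was 2105 and 1070 in normal liver, 249469 and 231964 at 8 h, and 1760 and 1557 at 72 h. That of 10 listed muscle genes, all measured, was 483.8 and 416.9 in normal liver, 11266 and 10328 at 8 h, and 544.1 and 481.3 at 72 h. Of the acinar genes, 9 of 9 were called higher at 8 h and 0 of 9 at 72 h. At 8 h, 2 of 10 Kupffer cell and macrophage markers were called lower and 1 higher, and 0 of 9 endothelial markers were called. Of all probe sets tested, 9.59% were called at 8 h and 2.49% at 72 h. The part of these markers in the 8 h value was not tested. In such bulk tissue, fewer cells of a type and less RNA per cell cannot be told apart.

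**Figure D1:**
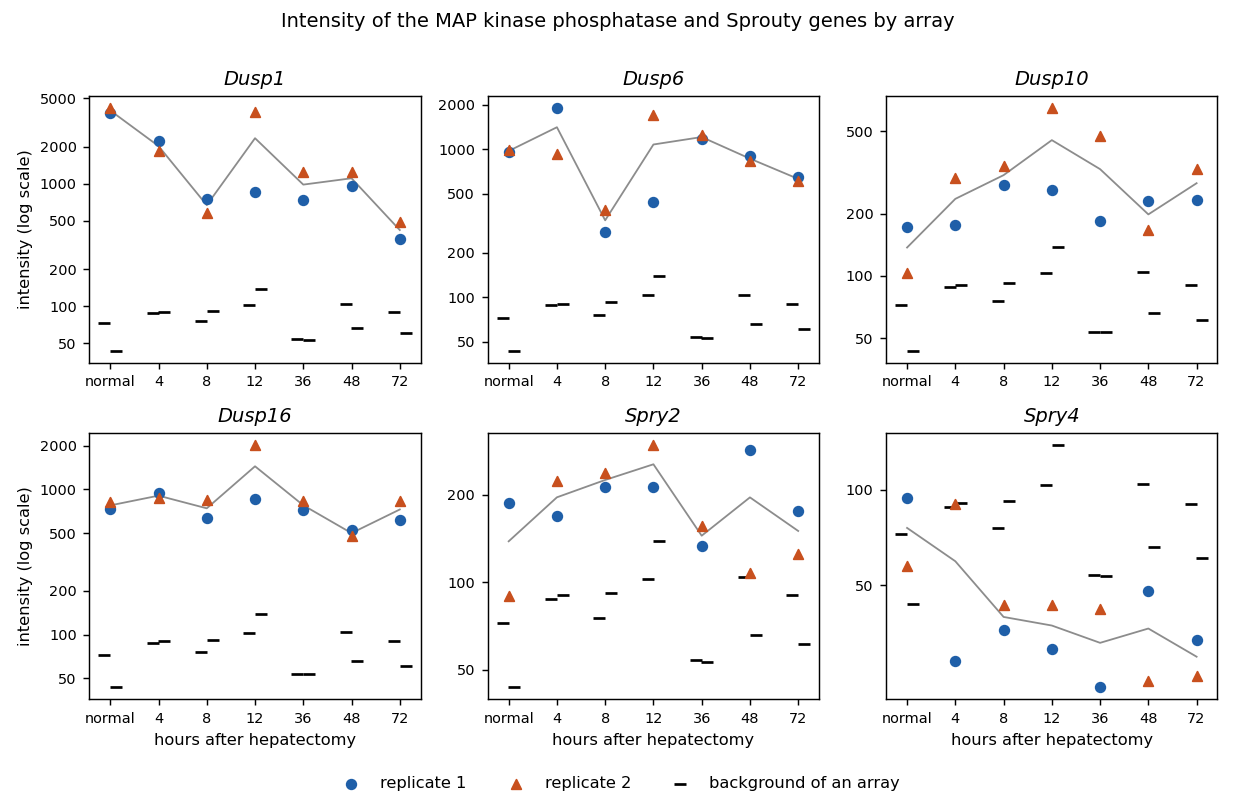
Intensity of the 6 genes on each array (vertical axis, log scale) in normal liver and at each time after hepatectomy (horizontal axis, hours, evenly spaced and not to scale). Circles are replicate 1, triangles replicate 2, lines join the group means, and dashes mark the background of each array. Dusp1 falls from 3784 and 4139 in normal liver to 352.9 and 485.4 at 72 h, replicate 2 at 12 h is the higher array for all 6 genes, and Spry4 lies at or under background after hepatectomy.

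Dusp6 encodes the cytoplasmic phosphatase that is selective for ERK. Its transcript was at its lowest at 8 h, but at no time did its difference from normal liver pass the threshold. Its intensity was 963.8 and 988.9 in normal liver, 1903 and 925.2 at 4 h, and 276.7 and 386.3 at 8 h. It was 443.8 and 1717 at 12 h, 1172 and 1255 at 36 h, 905 and 829 at 48 h, and 654.4 and 609.7 at 72 h. Both arrays lay below both normal arrays at 8, 48 and 72 h and above them at 36 h, while at 4 and 12 h the 2 arrays lay on opposite sides of normal liver. Of all probe sets tested, 25.6% lay apart and lower at 8 h, 16.3% did so at 48 h and 17.5% did so at 72 h, and 26.7% lay apart and higher at 36 h.

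The Dusp6 difference at 8 h, the time with the acinar and muscle sums given above, was -1.43 on the log2 scale (SE 0.47, limma adjusted p = 0.078), and its F test over the 6 times had an adjusted p of 0.134. Its wide pairs at 4 and 12 h enter the spread that the fit uses at every time: without either 12 h array the 8 h difference passed (adjusted p = 0.0103 in both fits), and so did the F test (0.0103 without replicate 2 and 0.0077 without replicate 1). The other differences of Dusp6 lay between -0.59 at 72 h and 0.43 at 4 h, with adjusted p of 0.586 or more. They turned with single arrays: the 12 h difference was -1.04 without 12 h replicate 2 and 0.78 without replicate 1, and the 4 h difference was -0.07 without 4 h replicate 1 and 0.92 without replicate 2, none of them called. From highest to lowest mean intensity, 4 h, 36 h, 12 h and normal liver overlapped from one to the next, and normal liver, 48 h, 72 h and 8 h were each apart from the next.

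Dusp10 encodes a phosphatase that prefers p38 and JNK to ERK. It was dim in normal liver and higher on 11 of 12 arrays after hepatectomy, with no time called. Its intensity was 171.6 and 102.9 in normal liver, 175.8 and 296.3 at 4 h, and 275.5 and 339.4 at 8 h. It was 259.8 and 648.4 at 12 h, 184.3 and 473.1 at 36 h, 230.6 and 166.5 at 48 h, and 234.3 and 327.8 at 72 h. On its brighter probe set, both arrays lay above both normal arrays at 5 of the 6 times, all but 48 h. Of all probe sets tested, 9.42% lay above normal liver in this way at 5 or 6 of the 6 times. All neighbours in the order of its means overlapped.

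The largest Dusp10 difference was at 12 h, 1.31 on the log2 scale (SE 0.43, limma adjusted p = 0.0669). The differences at 4, 8, 36, 48 and 72 h were 0.59, 0.93, 0.90, 0.41 and 0.81, with adjusted p from 0.2 to 0.699, and the F test gave 0.358. The second Dusp10 probe set was dimmer, with 1 of 2 normal arrays above background, and its difference at 12 h was 1.05 (SE 0.335, adjusted p = 0.0609). On this second probe set, normal liver was at 170.9 and 42.7. Both arrays lay above both normal arrays at 12 h (267.6 and 242.5) and 48 h (238.9 and 171.7), but at none of the other times. With the mean of both probe sets in place of the brighter one, the 12 h difference was called (adjusted p = 0.0382). On the brighter probe set, the 12 h difference was 1.88 without 12 h replicate 1 and 0.73 without 12 h replicate 2. Whether it passed the threshold changed with the 12 h array left out, and also without either 36 h array, at an unchanged 1.31.

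Dusp16 encodes a further phosphatase of JNK and p38. It was highest at 12 h and lowest at 48 h, and none of its differences from normal liver was called. Its intensity was 735.3 and 817.3 in normal liver, 942 and 869.9 at 4 h, and 633.8 and 848.7 at 8 h. It was 857.3 and 2028 at 12 h, 721.6 and 833.9 at 36 h, 524.6 and 476.2 at 48 h, and 616.9 and 838.3 at 72 h. Both arrays were above normal liver at 4 and 12 h, where 19.4% and 29.4% of probe sets lay apart and higher, and both were below it at 48 h. The 12 and 4 h arrays overlapped and were apart from those of 36 h, normal liver, 8 h and 72 h, which overlapped, and the 48 h arrays lay apart below these.

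The Dusp16 differences ran from -0.58 at 48 h (SE 0.33, limma adjusted p = 0.455) to 0.73 at 12 h (adjusted p = 0.165), and its F test had an adjusted p of 0.203. Without 12 h replicate 1 the 12 h difference was 1.33 (adjusted p = 0.00994) and the F test passed (0.0153). Without 12 h replicate 2 the 12 h difference was 0.14 and not called, so its size is set by which array is used.

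Spry2 and Spry4 encode Sprouty proteins, which hold back signalling from receptor tyrosine kinases to Ras and ERK. Spry2 was dim on every array. Its intensity was 187 and 89.9 in normal liver, 169.9 and 222.6 at 4 h, 212.8 and 237.6 at 8 h, and 212.4 and 297.6 at 12 h. It was 132.9 and 156.6 at 36 h, 285 and 107.3 at 48 h, and 175.6 and 125 at 72 h. Its arrays were apart from and above normal liver at 8 and 12 h only, where 29.5% and 29.4% of probe sets were, and all neighbours in the order of its means overlapped. Its differences ran from 0.09 at 36 h to 0.71 at 12 h (SE 0.35, limma adjusted p = 0.197), and its F test had an adjusted p of 0.584. With 1 array left out the 12 h difference ran from 0.34 to 1.07, and those at 36, 48 and 72 h turned negative in some fits, to as low as -0.28, -0.20 and -0.25. A second Spry2 probe set lay below the filter, with 0 of 2 normal arrays and 2 of 2 arrays at 12 h above background.

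Spry4 was above background in normal liver alone, at 94.2 and 57.3. After hepatectomy its 12 values ran from 23.9 to 90.1, and 0 of 12 was above the background of its array. At 36 h, when background was low, this put Spry4 at least 1.37-fold below normal liver, a bound and not a measured fold. With the filter left out, its limma adjusted p was 0.332 to 0.832 over the 6 times, so no time was called. The second Spry4 probe set was above background on no array.

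**Figure D2:**
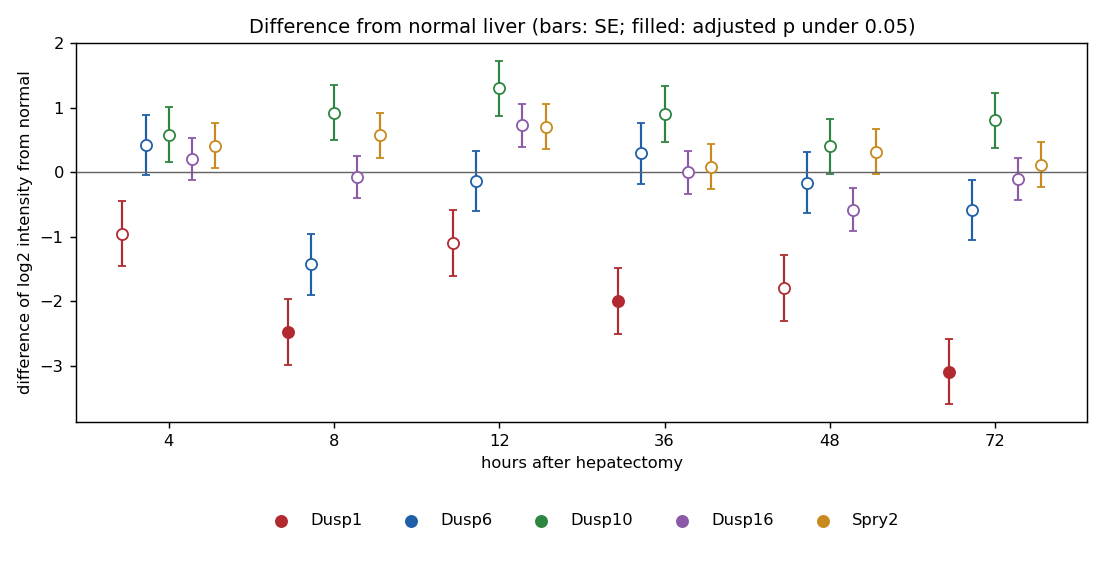
Difference of log2 intensity from normal liver (vertical axis) for the 5 genes tested at each time (horizontal axis, hours, evenly spaced and not to scale). Points are limma estimates, bars are their standard errors, and filled points have an adjusted p under 0.05. The filled points are Dusp1 at 8, 36 and 72 h, at -2.48, -1.99 and -3.09, and the points of Dusp10 lie above 0 at all 6 times.

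Of the 7 pairs of arrays, the 12 h pair lay furthest apart for Dusp1, Dusp6 and Dusp16, and the 48 h pair for Spry2. For Dusp10 the 12 and 36 h pairs were about equally far apart (2.50- and 2.57-fold in intensity as deposited, 1.16 and 1.14 on the log2 scale after 57 was added). Neither pair was wide on the second Dusp10 probe set, at 267.6 and 242.5 at 12 h and 148.6 and 144.4 at 36 h. From replicate 1 to replicate 2 at 12 h, Dusp1 was higher by 2.11 on the log2 scale, Dusp6 by 1.83, Dusp16 by 1.19, Dusp10 by 1.16 and Spry2 by 0.40. Between the same 2 arrays, 1.04% of all probe sets tested were as far apart as Dusp1 and 1.8% as far apart as Dusp6. The figures for Dusp16, Dusp10 and Spry2 were 7.15%, 7.65% and 45.2%. The difference was therefore wide for Dusp1 and Dusp6 and ordinary for Spry2.

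With the other phosphatases of the list, Dusp2 and Dusp8, 6 of 6 MAP kinase phosphatases tested were higher in replicate 2 and 5 of them at least 2-fold (median difference 1.23), counted like all differences on the log2 scale after 57 was added to each intensity. Dusp2, the one under 2-fold, was at 355.6 and 361.2. Dusp10 was counted by its brighter probe set, and its second was not higher in replicate 2 (267.6 and 242.5). Of the Sprouty and Spred genes 4 of 4 were higher and 0 at least 2-fold (median 0.75). Over all 13576 probe sets 6897 were higher in replicate 2, 4.59% at least 2-fold, and the median was 0.01.

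Genes known to be transcribed upon ERK signalling differed between the 12 h arrays as well. Of 18 tested, 16 were higher in replicate 2, 11 of them at least 2-fold, and 1 was at least 2-fold lower (median 1.43). Egr1, an immediate-early zinc finger factor, was at 1674 in replicate 1 and 13349 in replicate 2. Fos, the AP-1 component, was at 301.8 and 1173. Maff, a small Maf factor, was at 41.8 and 1049, the first of which is under background. Phlda1, a pleckstrin homology-like domain protein, was at 639.2 and 7800. The gene that was at least 2-fold lower in replicate 2 was Ccnd1, which encodes cyclin D1.

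In the 6 other pairs the median difference of the phosphatases lay between -0.24 and 0.45, and that of the ERK-induced genes between -0.23 and 0.33. Replicate 2 of the 8, 36 and 72 h groups shares the low pyruvate carboxylase ratio of 12 h replicate 2, and its phosphatase medians over replicate 1 were 0.32, 0.45 and 0.15. The low ratio of 12 h replicate 2 and its high background move with these values, and their part in them was not tested. Between the 12 h arrays, replicate 1 first, the summed markers were 276433 and 239419 for hepatocytes, 7205 and 8886 for Kupffer cells and macrophages, and 1962 and 2183 for neutrophils. They were 4686 and 4018 for endothelium, 7075 and 9175 for stellate cells and fibroblasts, and 952.2 and 928.5 for lymphocytes. The acinar sums were 4175 and 1946 and the muscle sums 2215 and 1581. Medians went against the sums for Kupffer cells and macrophages (784.7 and 475.6), neutrophils (286.4 and 270.2) and endothelium (365.8 and 449.5). Of 10 Kupffer cell and macrophage markers, 3 were called lower at 12 h and 1 higher, when 12.2% of all probe sets were called in either direction. The sum of the 5 measured cholangiocyte markers was 378.5 in replicate 1 and 1495 in replicate 2, against 424 and 304 in normal liver. Of the 5, 1 was above background in replicate 1 and 2 in replicate 2, and their median was 71.1 and 104.8. This sum was thus higher in replicate 2, as the phosphatases were, through few of its markers. At 12 h 1 of the 2 cholangiocyte markers tested was called higher, Sox9. The part of these cells in the 12 h values was not tested. Outside 12 h, the members furthest apart for their pair were Dusp6 at 4 h, with 2.2% of probe sets as far apart, and Dusp10 at 36 h, with 2.52%. On the brighter Dusp10 probe set, the higher 36 h array, replicate 2, was also the one with acinar transcripts (sums of 1088 and 40433). Their part in its value was not tested, and the second Dusp10 probe set was at 148.6 and 144.4.

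**Figure D3:**
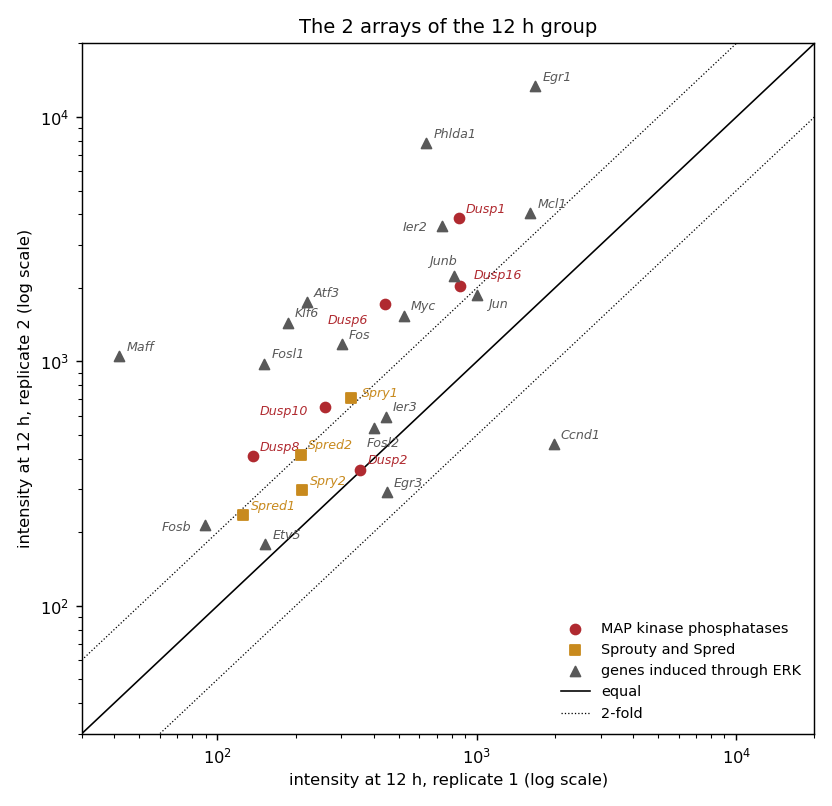
Intensity in replicate 2 against replicate 1 of the 12 h group (both axes on a log scale) for the tested MAP kinase phosphatases (circles), Sprouty and Spred genes (squares) and genes induced through ERK (triangles). The solid line marks equal intensity and the dotted lines a 2-fold difference of the intensities as deposited, which Spry1 (327.2 and 705.8) and Fosb pass while staying under 2-fold once 57 is added. Of the 6 phosphatases 5 lie at or beyond 2-fold toward replicate 2, with Dusp1 at 850.9 and 3857, while Ccnd1 lies beyond 2-fold on the other side.

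At the other times the ERK-induced genes set a background for the phosphatases. At 4 h, when Dusp1 was 2226 and 1838 against 3784 and 4139 in normal liver, Egr1 was 11363 and 13642 against 1837 and 2561 (log2 difference 2.49, SE 0.679, limma adjusted p = 0.085). Junb, an AP-1 component, rose to 2098 and 1748 from 415.2 and 270.7 (2.33, called), and Maff, at 894.6 and 960.4 and under background in normal liver, was at least 16.5-fold higher and called. On both 4 h arrays Dusp1 was thus below, and Egr1 above, both normal arrays, and neither difference was called. Phlda1, of the same list as Egr1, was also below both normal arrays (2504 and 3031 against 3914 and 4186) and was not called. Of all probe sets tested, 19.4% lay apart and higher at 4 h, and the share that lay lower is not given here. The acinar sums at 4 h were 36205 and 36629 and the muscle sums 18423 and 16637, and their part in the 4 h values was not tested.

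At 8 h, Dusp1, Dusp6, Fos and Phlda1 all had both arrays below normal liver, as did 25.6% of all probe sets tested. Fos was 316.1 and 243.1 against 616.2 and 625.5 (log2 difference -1.02, limma adjusted p = 0.184), and Phlda1 was 758.1 and 798.8 against 3914 and 4186 (-2.30, adjusted p = 0.0809). Neither passed the threshold. Ier3, a stress and ERK response gene, was on the other side, at 581.8 and 458.5 against 114.4 and 118.8 (1.73, adjusted p = 0.000761). Fos and Phlda1 did not stand for the list of ERK-induced genes. The median difference of the 18 tested was 0.50 at 8 h, with 2 called higher (Junb and Ier3) and 0 lower. Like Dusp1, Phlda1 was high in normal liver, low at 8 h, split at 12 h with replicate 2 high, and low at 36 h (652.3 and 1043).

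Over the list of ERK-induced genes, the count of 18 called at each time was 2 higher at 4 h (Junb and Maff) and 2 higher at 8 h (Junb and Ier3). It was 5 higher at 12 h (Egr3, Jun, Junb, Ier3 and Klf6) and 2 higher at 36 h (Ier3 and Ccnd1). Over all probe sets tested, 2.42%, 9.59%, 12.2% and 4.17% were called at these 4 times. Myc alone was called at 48 h, lower (-2.29), and Ccnd1 alone at 72 h, higher (2.02), where 2.32% and 2.49% of all probe sets were called. The median difference of the 18 genes at 4, 8 and 12 h was 0.97, 0.50 and 1.11, against -0.003, 0.09 and 0.12 over all probe sets tested.

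**Figure D4:**
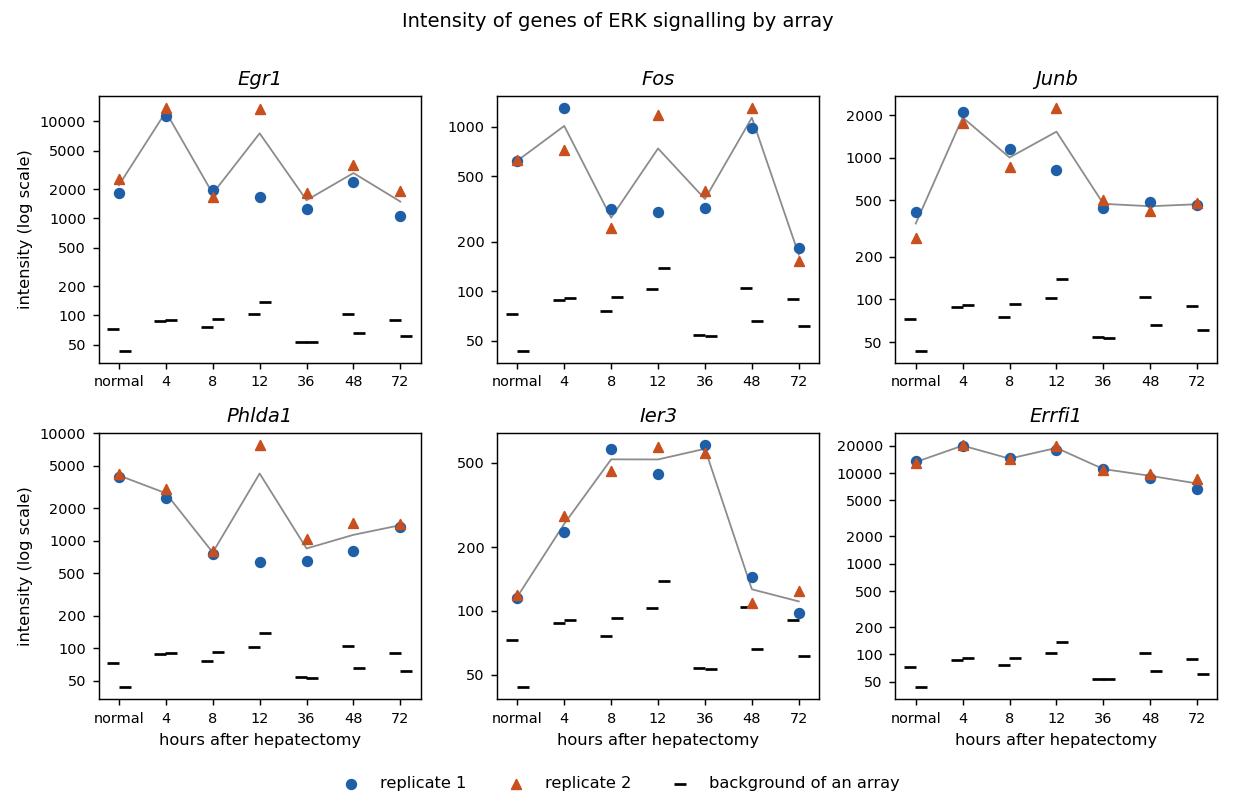
Intensity on each array (vertical axis, log scale) of 5 genes induced through ERK and of Errfi1, a feedback inhibitor of the EGF receptor, in normal liver and at each time after hepatectomy (horizontal axis, hours, evenly spaced and not to scale). Circles are replicate 1, triangles replicate 2, lines join group means and dashes mark the background of each array. Egr1 reaches 11363 and 13642 at 4 h and 13349 in replicate 2 at 12 h, and Phlda1 falls from 3914 and 4186 in normal liver to 758.1 and 798.8 at 8 h.

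The rest of the pathway is given from lists of its parts. Of 10 MAP kinase phosphatases listed, 8 had a probe set and 6 were tested, and Dusp1 was the only one called at any time. Dusp8, a phosphatase of JNK and p38, was 107.3 and 12.2 in normal liver and 136.6 and 410.6 at 12 h (limma adjusted p = 0.108). Of the 7 Sprouty and Spred genes listed, 4 were tested and 0 was called at any time. Spry1 had its highest value at 12 h, 327.2 and 705.8 against 354.5 and 293 in normal liver. The median difference of the phosphatases at 4, 8 and 12 h was 0.35, 0.25 and 0.60, when all probe sets had -0.003, 0.09 and 0.12, and that of the Sprouty and Spred genes was 0.25, -0.04 and 0.40.

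Of 12 tested genes of the Ras to ERK cascade, 0 was called at any time. Of 15 tested ligands and receptor tyrosine kinases, Fgf21, an endocrine hormone, was called higher at 4, 8, 12 and 36 h. It was at least 3.88-, 4.35-, 8.03- and 10.4-fold above normal liver. At these times 2.42%, 9.59%, 12.2% and 4.17% of all probe sets were called. The acinar sums were 2105 and 1070 in normal liver, 36205 and 36629 at 4 h, and 249469 and 231964 at 8 h. They were 4175 and 1946 at 12 h, and 1088 and 40433 at 36 h. The part of acinar transcripts in the Fgf21 values was not tested. Erbb3, a receptor partner of the EGF receptor family, was lower at 12 h (-2.29) and Fgfr1, a fibroblast growth factor receptor, higher (1.13). Among 11 tested genes of the JNK and p38 cascades, Mapkapk2, a kinase downstream of p38, was called at 12 h (1.01).

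Of 10 tested genes that restrain growth factor and Ras signalling by other means, Ptpn1, a tyrosine phosphatase of receptors, was called higher at 4, 8 and 12 h (1.17, 0.97 and 1.08). Socs2, a suppressor of growth hormone signalling, was called lower at 12 and 72 h (-1.31 and -2.18). Errfi1, which binds and inhibits the EGF receptor, was 13558 and 12950 in normal liver, 19667 and 20524 at 4 h, and 6753 and 8607 at 72 h, with no single time called. The shares of all probe sets called at these times, and the acinar and muscle sums of the 4 and 8 h livers, are given above. The part of acinar and muscle transcripts in these values was not tested.

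The early times (4, 8 and 12 h) were compared with the late times (36, 48 and 72 h), 6 arrays against 6, in the same fit. Of the 5 members tested 0 was called, among 15.9% of probe sets. Dusp1 was higher early by 0.79 on the log2 scale (SE 0.295, limma adjusted p = 0.0942) and Dusp16 by 0.52 (SE 0.191, adjusted p = 0.0914). The differences of Spry2, Dusp10 and Dusp6 were 0.39, 0.23 and -0.23 (adjusted p = 0.232, 0.595 and 0.638). Without 12 h replicate 1, Dusp1 (1.14, adjusted p = 0.00117) and Dusp16 (0.71, adjusted p = 0.00483) were called. Without 12 h replicate 2 the differences were 0.44 for Dusp1 and 0.32 for Dusp16, and neither was called. Among the ERK-induced genes 8 of 18 were called higher early and Ccnd1 lower, with a median of 0.73 against -0.02 over all probe sets. Errfi1 was higher early (0.93, adjusted p = 0.000223). In the same comparison 9 of 9 acinar genes and 9 of 9 muscle genes tested were called higher early (medians 3.33 and 2.34). The part of acinar and muscle transcripts in the early values was not tested.

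Across the 14 arrays, Dusp1 and Dusp6 correlated at r = 0.62 in log2 intensity (0.54 without 12 h replicate 2), and Dusp10 and Dusp16 at 0.61 (0.24 without it). Dusp10 and Spry2 correlated at 0.60 (0.45 without it). Dusp1 and Dusp10 correlated at -0.14, and at -0.55 without 12 h replicate 2. The arrays share groups, and 4 of the arrays share the low pyruvate carboxylase ratio, so these values are descriptions.

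For each member the 3 genes with the most similar pattern were sought among 1186 or 1187 genes called by the F test, by Pearson correlation of the 7 group means. For Dusp1 they were Crebrf (r = 0.93), a regulator of CREB3 factors, Mug1 (0.92), a plasma protease inhibitor, and Pon1 (0.88), a plasma esterase. Crebrf was 768 ± 14 (SD, n = 2) in normal liver, 293.6 ± 59.26 at 8 h and 297 ± 11.1 at 72 h. For Dusp6 they were Msmo1 (0.85), of cholesterol synthesis, Pank3 (0.83), of coenzyme A synthesis, and Nr1d2 (0.81), a clock repressor. Msmo1 was 955 ± 37.26 at 8 h and 7415 ± 2920 at 36 h.

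For Dusp10 the most similar genes were Ybx3 (0.97), Tnfrsf12a (0.96), the receptor of TWEAK, and Grn (0.96), progranulin. Tnfrsf12a was 77.85 ± 43.06 in normal liver and 3668 ± 364.4 at 12 h. For Dusp16 they were Atf4 (0.93), the factor of the integrated stress response, Ifrd1 (0.87) and Bach1 (0.87), a repressor that binds heme. Atf4 was 2196 ± 17.68 in normal liver and 4169 ± 571.8 at 12 h. For Spry2 they were Dnajc27 (0.98), Snhg5 (0.97) and Slc7a6 (0.97), an amino acid transporter. With 7 points, 23 of the genes compared passed 0.9 for Dusp10 and for Spry2, 2 for Dusp1, 1 for Dusp16 and 0 for Dusp6.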

How the data were processed

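Total RNA of mouse liver, labelled with biotin per the labels, was measured on 14 one-colour arrays in 7 groups of 2. Each probe set has 1 deposited value per array, a linear intensity. No source used here names the software behind these values. With the lowest and highest 2 percent left out, every array had a mean between 500.2 and 500.3, so this scaling was kept. Of 22690 probe sets, 64 were controls, which were not tested; 20380 of the other 22626 have 1 symbol in the array annotation, 691 several and 1555 none. Gene identifiers of 20351 matched RefSeq genes of GRCm38.p6, and 0 symbols changed.

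The log2 of intensity plus 57 (the 25th percentile) was fitted in limma 3.58.1 (R 4.3.3), with 7 groups in 1 model. The 13576 probe sets whose mean reached the 40th percentile, 128.8, entered the fit. Benjamini-Hochberg adjustment was made within each comparison. Fold changes understate those of dim genes because of the added 57. Where no array of a group passed background, the fold is a bound against that background.

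The rule for named genes took all members, up to 4 called genes of each pathway list in each comparison with the largest change, and the 3 genes most like each member. Egr1, Fos, Phlda1, Dusp2, Dusp8, Spry1, further values of Maff, Ccnd1 and Errfi1, and the whole of the 5 called at 12 h were chosen after their values were seen. Members and lists were chosen with earlier results of these data known. The procedure was tested on simulated data. The marker lists were of hepatocytes, Kupffer cells, neutrophils, endothelium, stellate cells, cholangiocytes, lymphocytes, pancreatic acinar cells and skeletal muscle. At 8 h, 2 of 6 neutrophil markers, 2 of 8 stellate cell markers, 0 of 2 lymphocyte and 0 of 2 cholangiocyte markers tested were called. At that time 9.59% of all probe sets were called.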

Additional observations from a re-analysis of the deposited data

How the results depend on the processing

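Of the 5 members fitted, 0 was called at 4, 12 and 48 h, 1 at 8, 36 and 72 h, 1 by the F test and 0 early against late. At 36 h the count was 0 under quantile normalization, with a pseudocount of 14.25 and with no filter (adjusted p of Dusp1 0.0549, 0.0716 and 0.0922). At 12 h it was 1 with a filter at the 60th percentile, with both Dusp10 probe sets averaged (Dusp10), and without the 4 arrays of low pyruvate carboxylase ratio (Dusp1, -2.15, adjusted p = 0.0148). Without these 4 arrays 1 was called at 48 h (Dusp1, 0.0179). With these arrays as a block, 2 were called at 8 h (Dusp6, -1.71, adjusted p = 0.0402) and 1 early against late (Dusp16, 0.0308). With only the 4 arrays compared, 2 were called at 8 h (Dusp6, 0.021). Array weights gave 1 early against late (Dusp1, 0.0497) and 2 by the F test (Dusp6, 0.03). A 2-fold rule without a test, on the arrays' mean intensities, gave 3, 1, 2, 1 and 2 at 8, 12, 36, 48 and 72 h, and 1 early against late. Probe sets were not counted under this rule, so these counts have no share beside them. Under the tests, 1302 probe sets were called at 8 h in the main fit, 1198 with the block and 922 with only the arrays compared. Early against late it was 2156 in the main fit, 2417 with the block and 2357 with array weights. At 36 h, 566 were called in the main fit, 589 under quantile normalization, 488 with a pseudocount of 14.25 and 455 with no filter. At 12 h it was 1656 in the main fit, 1770 with the 60th percentile filter and 1657 with both Dusp10 probe sets averaged. The F test called 1783 in the main fit and 2157 with array weights. The other filter settings tested other numbers of probe sets. Without the 4 arrays some groups kept 1 array, and no total is given.

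With 1 array left out, the counts of members called changed at every time but 4 h, early against late and by the F test. Such a fit leaves 1 array in a group, and the total of probe sets called moved as well. These counts are therefore not read as results about the members. Over 40 results of single genes, 1043 of 1094 alternative values kept their side of the threshold, 21 lost a call, 30 gained one and 0 reversed a call. Of the 1043, 18 changed sign with no call on either side; under quantile normalization these were Dusp16 at 36 h (-0.08) and Spry2 at 72 h (-0.09). The median of all differences at 48 h was 0.12 as deposited and -0.001 under that normalization. With the replicate block, the counts were the same: 0 at 4, 12 and 48 h, 1 at 8, 36 and 72 h, 1 by the F test and 0 early against late. The replicate numbers did not pair the samples throughout: deviations of same-numbered arrays correlated at -0.185 to 0.527 over 21 pairs of groups. The median was 0.025, and 9 were over 0.1. The 4 arrays of low pyruvate carboxylase ratio were all replicate 2, so the numbers go with this ratio in part of the groups. The labels name no batch, and what lies behind the ratio was not tested. The F test has no value for the 2-fold rule or for only the arrays compared. Spry4 and the second Spry2 probe set are near background, which limits them. The cause of each change was not tested.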
